A study of Mus musculus with 16 samples.

Results

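Peaks of the homeodomain transcription factors Meis1 and Hoxb13 were examined at 6 mouse ion channel genes: Cacna1c, Cacnb2, Cacna2d1 and Cacna1g, which encode calcium channel subunits, and the pacemaker channel genes Hcn4 and Hcn2. The genes were chosen by name from 21887 protein-coding genes, and no sodium channel gene is among the 6. A peak was assigned to a gene when it overlapped the gene body with 5 kb either side by at least 1 bp. Chromatin immunoprecipitation with sequencing (ChIP-seq) had been run on mouse heart ventricles at postnatal day 15. Paro/Neo mice had been injected intraperitoneally with the aminoglycosides paromomycin and neomycin (150 mg/kg, 2 injections each day) over 7 days that began on postnatal day 7, and Ctrl mice with PBS on the same days. Each antibody had 2 Paro/Neo and 2 Ctrl libraries, giving 8 peak lists of the series' 16 samples; the 8 inputs were not analysed here. The labels mention ventricles of 2 hearts per sample, which can mean a pool or 1 heart per replicate. The sources name no genotype or strain.

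The L-type calcium channel lets calcium into the cardiomyocyte during each action potential, and this calcium triggers release from the sarcoplasmic reticulum. Cacna1c encodes its pore, Cacnb2 an intracellular subunit that sets trafficking and gating, and Cacna2d1 an extracellular one that raises surface expression. Cacna1g encodes the pore of a T-type channel, which opens at more negative voltages and serves pacemaking and conduction. The HCN channels carry the inward current of diastolic depolarization; Hcn4 is the main form of the sinoatrial node, and Hcn2 is also found in working myocardium. Peak lists hold binding, not expression, so the ventricular label could not be checked against marker genes.

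The lists held from 821 to 16963 peaks, the longest being Hoxb13 Paro/Neo 2. Sequencing depth is unknown, and an absent peak can be a matter of depth. The labels and the letters in the file naming disagree about which of the second Meis1 replicates is control; the labels were followed, and each library is given by its own label. The Meis1 antibody is labelled Meis1/2, and Meis2 sites may be among its peaks. The antibodies differ also in title style and inputs, so antibody and set of libraries cannot be told apart. In whole ventricle, a site bound in fewer cells and a site bound less in each cell cannot be told apart.

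Meis1 peaks lay at most of these genes. In Paro/Neo libraries 1 and 2, 4 and 4 of the 6 genes held a Meis1 peak; in Ctrl libraries 1 and 2, 5 and 5 did. Over all protein-coding genes, 4.07% and 2.83% held a peak in the Paro/Neo libraries and 8.59% and 8.21% in the Ctrl libraries. Cacna1c, Cacnb2, Cacna1g and Hcn4 held a peak in each of the 4 Meis1 libraries, Cacna2d1 in both Ctrl libraries alone, and Hcn2 in none. For Hoxb13, 2 and 6 genes held a peak in Paro/Neo libraries 1 and 2, and 4 and 2 in Ctrl libraries 1 and 2, against 4.20% and 46.5% of protein-coding genes in the Paro/Neo libraries and 24.2% and 5.79% in the Ctrl libraries. The 6 of 6 in Hoxb13 Paro/Neo 2 thus stand beside the highest background of the 8 lists.

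**Figure D1:**
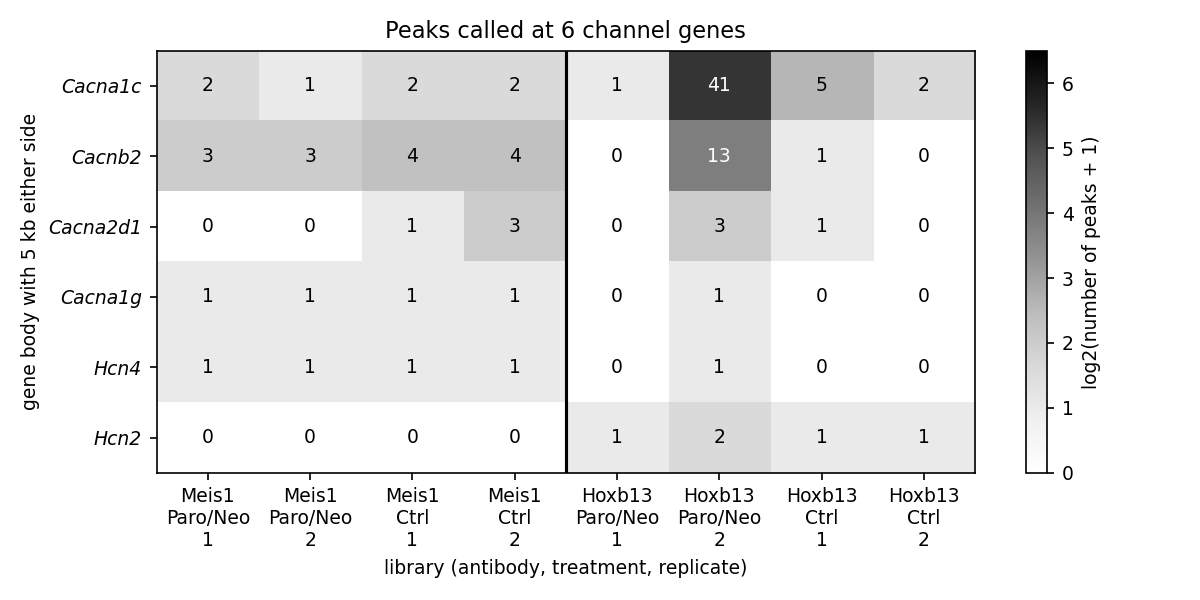
Number of peaks at each gene (rows) in each library (columns), with 5 kb either side of the gene body; shading is log2(number + 1), on which 0 is white. Meis1 peaks are present in all 4 libraries at Cacna1c, Cacnb2, Cacna1g and Hcn4, Hcn2 has Hoxb13 peaks alone, and Hoxb13 Paro/Neo 2 holds 41 peaks at Cacna1c and 13 at Cacnb2.

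The 6 genes differ widely in length, so they were also read against genes of like length. Cacna1c (610.1 kb), Cacna2d1 (440.2 kb) and Cacnb2 (385.0 kb) are among 990 protein-coding genes of 200 kb or longer; Cacna1g (66.0 kb), Hcn4 (40.2 kb) and Hcn2 (19.5 kb) are among 11533 of 10 to 100 kb. After peaks of the 4 Meis1 libraries were merged into regions, a region shared by at least 2 libraries was found at 5 of the 6, against 6.19% of all protein-coding genes, 30.0% of the long ones and 5.64% of the shorter class. A region called in all 4 Meis1 libraries lay at 4 of the 6, Cacna1c and Cacnb2 among the long genes and Cacna1g and Hcn4 in the shorter class. The same was true of 1.75% of all protein-coding genes, 9.19% of the long ones and 1.67% of the shorter class. For Hoxb13, 3 of the 6 held a region in at least 2 libraries, which are Cacna1c, Cacna2d1 and Hcn2; this is the case for 22.9% of all genes, 21.1% of the long and 26.0% of the shorter ones. Hcn2 alone held a Hoxb13 region in all 4 libraries, as did 2.84% of all protein-coding genes, 3.13% of the long and 2.98% of the shorter ones. The genes were chosen with earlier results on these lists known, so no test was made over them.

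At Cacna1c, the Meis1 region shared by all 4 libraries lay over the start site at the upstream end of the gene. The merged region (mm10, chr6:119195564-119197160) was 1597 bp wide. Its peak was 1039 and 333 bp wide in Paro/Neo 1 and 2, and 1214 and 1597 bp in Ctrl 1 and 2. By the deposited fold enrichment it ranked 233 of 1541 and 105 of 1025 in the Paro/Neo lists, with folds of 6.86 and 7.61, and 317 of 3529 and 325 of 3176 in the Ctrl lists, with folds of 7.84 and 7.78. The Paro/Neo 2 peak stopped just short of the start site, and the other 3 covered it. By rank it was within the strongest 8.98% to 15.1% of each list. The RefSeq promoter table gives 3 start sites for Cacna1c, which is transcribed from right to left on the chromosome and is known for alternative first exons, of which the more upstream one serves the heart. The windows at the other start sites held no Meis1 peak. The region also lies inside the body of Dcp1b, a gene for an mRNA decapping factor that overlaps this end of Cacna1c.

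The bases before this start site are shown because the 4 peaks share them: 245 of the 250 lie in the 333 bp common to all 4 peaks. The sequence is that of RefSeq (GRCm38.p6, the coordinates of mm10; chr6:119196410-119196659, minus strand), 5′ to 3′, and capitals mark TGACAG, a word known as the core of the Meis binding motif:
Cacna1c: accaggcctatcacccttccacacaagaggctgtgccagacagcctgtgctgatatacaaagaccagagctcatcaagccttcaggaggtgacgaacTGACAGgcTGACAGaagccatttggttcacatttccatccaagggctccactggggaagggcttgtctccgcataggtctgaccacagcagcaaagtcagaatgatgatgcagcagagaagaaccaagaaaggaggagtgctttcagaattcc
TGACAG was searched on both strands of the window of 250 bases before to 50 bases after the start site. It began 153 and 145 bases before the start site and at base 36 after it, each time on the strand shown. The last of these lies outside the printed bases and outside the part common to all 4 peaks. At least 1 TGACAG was found in 19.2% of the 32851 promoter windows of the table, and 3 or more in 0.204%. Among the 47 windows that overlapped a Meis1 region called in all 4 libraries anywhere in the genome, 61.7% held at least 1. The match is a description of the letters and not of a bound site.

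Cacna1c had weaker Meis1 regions further inside the gene. One at chr6:118825370-118825645, which is 276 bp wide and 67.4 kb from the nearest start site, was called in Paro/Neo 1 (rank 1243 of 1541) and Ctrl 1 (rank 2252 of 3529). The other, of 974 bp at chr6:118999440-119000413, was called in Ctrl 2 alone, at rank 3049 of 3176. These ranks place both in the weaker part of their lists.

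Cacnb2 held 3 Meis1 regions called in all 4 libraries, and it was the 1 protein-coding gene of 21887 with 3 or more. The first (chr2:14823017-14824066, 1050 bp) reached to within 26 bp of an internal start site and began 219 kb into the gene; its peak ranked 351 of 1541 and 50 of 1025 in Paro/Neo 1 and 2, and 266 of 3529 and 235 of 3176 in Ctrl 1 and 2. Its widths were 1015 and 305 bp in Paro/Neo 1 and 2, and 1050 and 989 bp in Ctrl 1 and 2. Paro/Neo 2 thus had the narrowest peak at this region and at that of Cacna1c; over the 610 Meis1 regions called in all 4 libraries, median peak widths were 289 and 260 bp in Paro/Neo 1 and 2, and 317 and 328 bp in Ctrl 1 and 2.

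The 250 bases before this internal start site (chr2:14823842-14824091, plus strand, RefSeq GRCm38.p6) are shown for comparison with Cacna1c, and they hold no TGACAG on either strand, so nothing is in capitals:
Cacnb2: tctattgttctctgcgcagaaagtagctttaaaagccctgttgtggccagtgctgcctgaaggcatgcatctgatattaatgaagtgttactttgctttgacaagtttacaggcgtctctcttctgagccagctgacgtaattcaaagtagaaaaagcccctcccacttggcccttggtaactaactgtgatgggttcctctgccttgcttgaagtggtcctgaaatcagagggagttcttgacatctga
Of these bases, 194 and 0 lay in the peaks of Paro/Neo 1 and 2, and 225 and 166 in those of Ctrl 1 and 2. The part common to the 4 peaks (chr2:14823028-14823332) therefore ends before the printed stretch begins.

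The second and the third Cacnb2 regions lay far from any start site of the table. The second (chr2:14917650-14917942, 293 bp) was 93.6 kb from the nearest start site and ranked 1159 of 1541 and 297 of 1025 in Paro/Neo 1 and 2, and 368 of 3529 and 354 of 3176 in Ctrl 1 and 2. The third (chr2:14929898-14930254, 357 bp) ranked 608 of 1541 and 833 of 1025 in Paro/Neo 1 and 2, and 495 of 3529 and 384 of 3176 in Ctrl 1 and 2. Both stood within the strongest 10.4% to 14.0% of the Ctrl lists and lower in the Paro/Neo lists, at 29.0% to 81.3%; ranks in lists of unequal length do not measure a change in binding. One more region (chr2:14936179-14936778, 600 bp) was called in both Ctrl libraries, at ranks 3000 of 3529 and 1759 of 3176, and in neither Paro/Neo library.

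**Figure D2:**
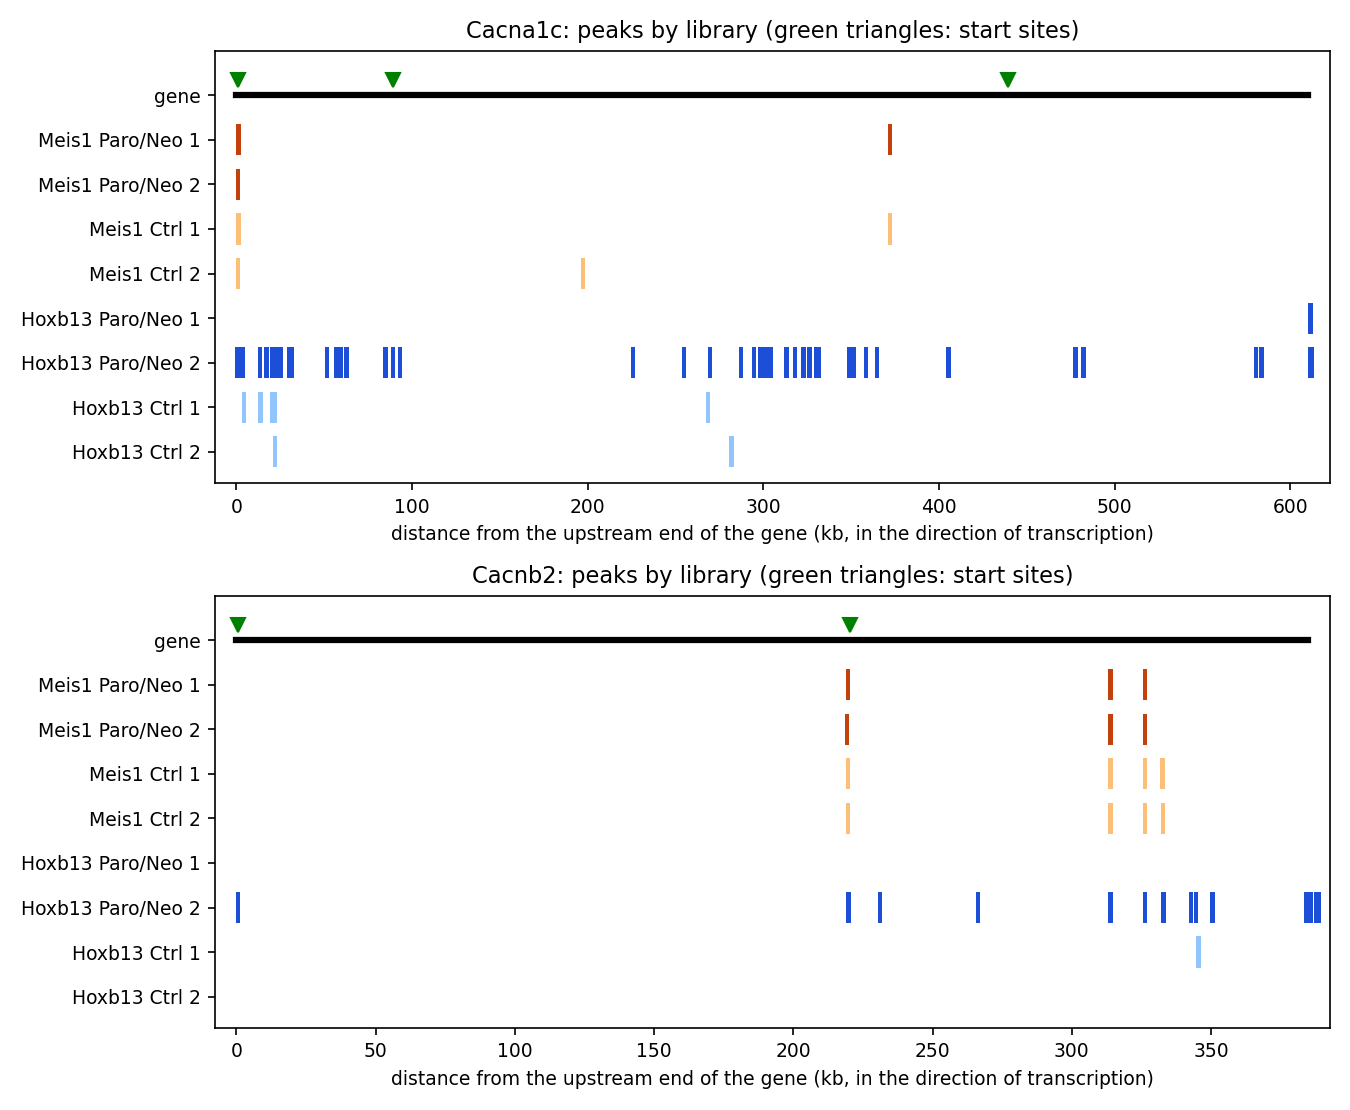
Peaks along Cacna1c (top) and Cacnb2 (bottom) by library, against distance in kb from the upstream end of the gene; each bar is a peak, drawn with a minimum width so that it can be seen, and green triangles are RefSeq start sites. The Meis1 peaks line up at the upstream start site of Cacna1c and at 3 places of Cacnb2, while Hoxb13 Paro/Neo 2 has 41 and 13 peaks.

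Cacna2d1 held Meis1 peaks in the Ctrl libraries alone. The numbers were 0 and 0 in Paro/Neo 1 and 2, and 1 and 3 in Ctrl 1 and 2. A single region (chr5:16182801-16183100, 300 bp) was called in both Ctrl libraries, at rank 1019 of 3529 in Ctrl 1 and at rank 3145 of 3176 in Ctrl 2, where it was among the weakest peaks of the list. It lay 248 kb from the start site of the gene.

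Cacna1g carried the strongest Meis1 peak of the 6 genes in 3 of the 4 lists. The region (chr11:94450345-94451669, 1325 bp) lies inside the gene, 22.7 kb from its end at the higher coordinate. The peak was 404 and 355 bp wide in Paro/Neo 1 and 2, and 1237 and 622 bp in Ctrl 1 and 2. It ranked 48 of 1541 and 142 of 1025 in the Paro/Neo lists, with folds of 9.44 and 6.97, and 72 of 3529 and 102 of 3176 in the Ctrl lists, with folds of 11.0 and 10.4. In Paro/Neo 2 the first Cacnb2 region, at rank 50, and the Cacna1c start site region, at rank 105, stood higher.

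The Hcn4 region lay upstream of the gene at the edge of the 5 kb window. It spanned 282 bp (chr9:58817810-58818091), of which 143 bp fell inside the window, and ended 4.86 kb before the Hcn4 start site. It ranked 443 of 1541 and 160 of 1025 in Paro/Neo 1 and 2, with folds of 5.69 and 6.77, and 174 of 3529 and 174 of 3176 in Ctrl 1 and 2, with folds of 9.16 and 9.0. The site is also inside the body of Rec114, a meiotic recombination gene whose body reaches to just upstream of Hcn4. With the gene body alone, Hcn4 held no Meis1 region, and 4 of the 6 genes held one in at least 2 libraries.

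**Figure D3:**
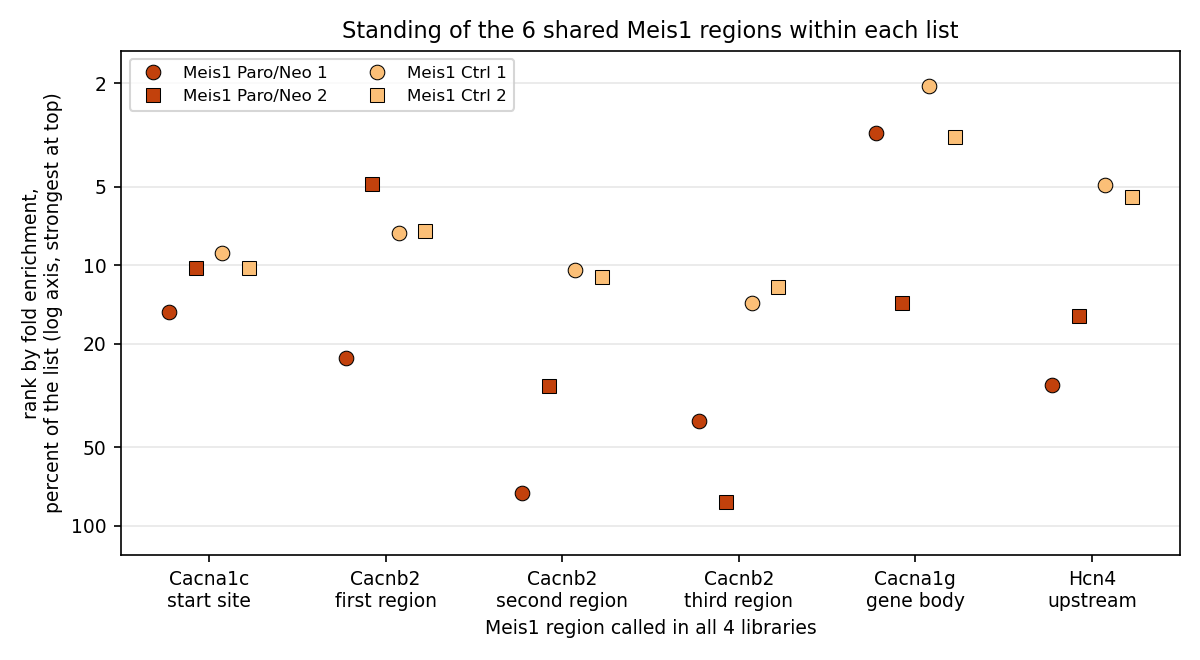
Rank of the 6 Meis1 regions called in all 4 libraries, as a percentage of the peaks of each list (log axis, strongest at the top); circles are replicate 1, squares replicate 2, dark symbols Paro/Neo and light symbols Ctrl. Ctrl ranks run from 2.04% to 14.0%, and Paro/Neo ranks from 3.11% to 81.3%.

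After Paro/Neo the 6 genes held fewer Meis1 peaks, in lists that were shorter as a whole. Meis1 peaks at the 6 genes numbered 7 and 6 in Paro/Neo 1 and 2, and 9 and 11 in Ctrl 1 and 2. The means were 6.5 ± 0.707 in Paro/Neo and 10.0 ± 1.41 in Ctrl (SD, n = 2 each), and the groups did not overlap. As a share of the whole list, these peaks made up 0.454% and 0.585% in Paro/Neo 1 and 2, and 0.255% and 0.346% in Ctrl 1 and 2. The density over the 6 windows was 4.32 and 3.70 peaks per Mb in the Paro/Neo libraries, where all protein-coding windows held 0.769 and 0.516, and 5.55 and 6.79 peaks per Mb in the Ctrl libraries, where they held 1.82 and 1.66. With lists cut to equal length the difference in mean peak number was −1 instead of −3.5. With the second replicates exchanged, as the file naming would have it, it was 1.5. Without both second replicates, 7 peaks in Paro/Neo 1 stood against 9 in Ctrl 1.

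Meis1 regions called in both libraries of a single treatment and neither of the other were about as frequent at these genes as among all Meis1 regions. Of the 12 Meis1 regions at the 6 genes, 6 were called in all 4 libraries, as were 610 of all 5069 Meis1 regions. A further 3 were called in Ctrl 2 alone, and the 276 bp region of Cacna1c in Paro/Neo 1 and Ctrl 1. Another 2, the last region of Cacnb2 and the 300 bp region of Cacna2d1, were called in both Ctrl and neither Paro/Neo library, a pattern shown by 15.9% of all Meis1 regions. No region showed the reverse pattern, which 0.296% of all Meis1 regions did. With lists of equal length, 0 regions were called in both Ctrl libraries alone, and the same count of 0 was obtained with the second replicates exchanged. The 2 against 2 libraries allow no two-sided exact permutation p under 0.333, so no p is given for a single gene.

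Hcn2 carried the 1 Hoxb13 region called in all 4 libraries. The merged region (chr10:79712167-79714215) was 2049 bp wide and ended 2.42 kb before the Hcn2 start site. Its peak ranked 150 of 821 in Paro/Neo 1 and 19 of 16963 in Paro/Neo 2, and 218 of 5202 in Ctrl 1 and 471 of 1121 in Ctrl 2. The folds were 4.13 and 8.31 in Paro/Neo 1 and 2, and 4.72 and 3.56 in Ctrl 1 and 2. In Paro/Neo 2 the peak was thus in the strongest 0.112% of the list. The nearest other gene is closer than Hcn2: Bsg, which encodes the membrane glycoprotein basigin, ends 188 bp away. Paro/Neo 2 had a further peak of 229 bp inside Hcn2, at rank 6948.

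**Figure D4:**
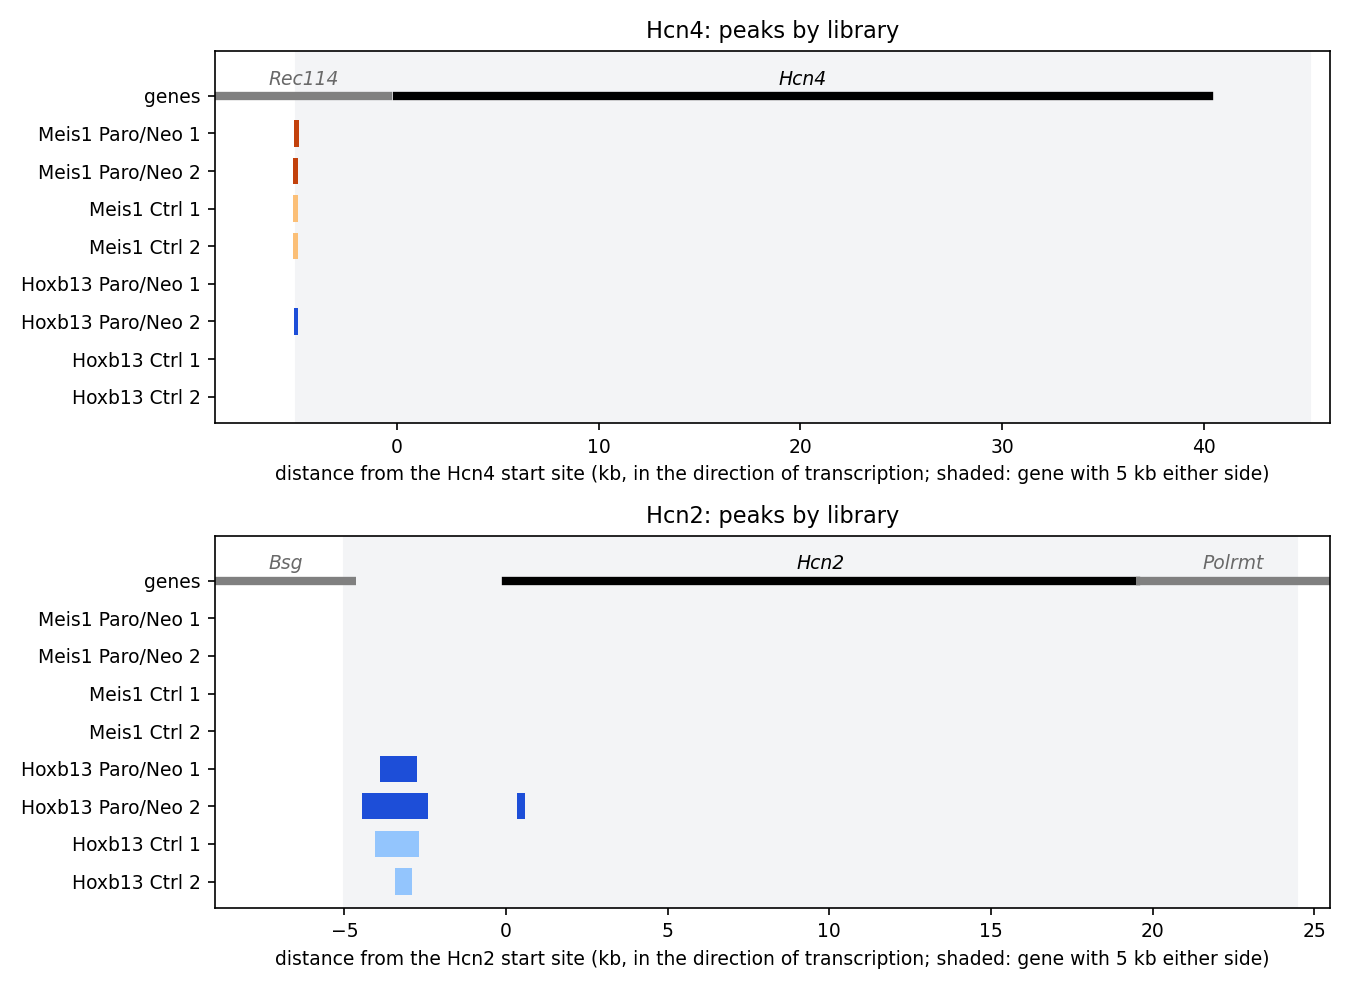
Peaks at Hcn4 (top) and Hcn2 (bottom) by library, against distance in kb from the start site; black bars are the genes, grey bars neighbouring genes, and the shaded area is the gene with 5 kb either side. The 4 Meis1 peaks lie 4.86 kb or more upstream of Hcn4 and the 4 aligned Hoxb13 peaks between Bsg and Hcn2, where the nearest edge is 2.42 kb from the start site.

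Hoxb13 peaks at Cacna1c came mostly from a single library. Their numbers were 1 and 41 in Paro/Neo 1 and 2, and 5 and 2 in Ctrl 1 and 2. Of the 44 merged Hoxb13 regions, 37 were called in Paro/Neo 2 alone and 4 in at least 2 libraries. The 41 peaks of Paro/Neo 2 were spread over the gene, with 16 within 100 kb of its upstream end, 0 from 100 to 200 kb, 19 from 200 to 400 kb and 6 beyond. Their median width was 653 bp, and they stood from 16.7% to 90.5% of the list by rank, with a median of 62.3%. Among protein-coding genes, only Ryr2, the ryanodine receptor gene, named after its values were seen, held more peaks in this library, with 132. This order is by number and takes no account of gene length. Of the 990 genes of 200 kb or longer, 2 held at least as many peaks as Cacna1c, itself included. Per Mb of window, Cacna1c held 66.1 peaks of this library, and the much shorter Hcn2, with 2 peaks, held 67.9.

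The Cacna1c region called in most Hoxb13 libraries lay at the start of a neighbouring gene. This region (chr6:119174482-119175881, 1400 bp) was called in Paro/Neo 2 and in both Ctrl libraries, at ranks 10101 of 16963 in Paro/Neo 2, and 474 of 5202 and 192 of 1121 in Ctrl 1 and 2. It overlapped the promoter window of Dcp1b and was 20.5 kb from the nearest Cacna1c start site. Regions of 678 bp (chr6:119183463-119184140) and 2504 bp (chr6:119191956-119194459), nearer to the upstream end of Cacna1c and inside Dcp1b, were called in Paro/Neo 2 and Ctrl 1. At the downstream end, a region of 3402 bp (chr6:118583832-118587233), 7 bp outside the gene, was called in both Paro/Neo and neither Ctrl library, a pattern that 0.181% of all Hoxb13 regions showed. Its ranks were 396 of 821 in Paro/Neo 1 and 6146 of 16963 in Paro/Neo 2, with −log10 q of 1.32 and 2.07. The count of such regions fell to 0 with the gene body alone, with peaks of a −log10 q of at least 2 and with lists of equal length. The reverse pattern, shown by 0.0170% of all Hoxb13 regions, was not found at the 6 genes.

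At the other genes Hoxb13 peaks were few outside Paro/Neo 2. Cacnb2 held 0 and 13 in Paro/Neo 1 and 2, and 1 and 0 in Ctrl 1 and 2, with no region shared between libraries. Cacna2d1 held 0 and 3 in Paro/Neo 1 and 2, and 1 and 0 in Ctrl 1 and 2. Its region of 909 bp (chr5:15934240-15935148) covered the start site and was called in Paro/Neo 2 (rank 9936 of 16963) and Ctrl 1 (rank 955 of 5202); it also overlapped the promoter window of the adjacent non-coding gene Gm3510. Cacna1g and Hcn4 each held 1 peak in Paro/Neo 2 and none in the other 3 Hoxb13 libraries. Over the 6 genes the mean was 31.5 ± 41.7 peaks in Paro/Neo and 5.5 ± 3.54 in Ctrl (SD, n = 2 each), so the difference of 26 was smaller than the spread between the Paro/Neo libraries. Hoxb13 peaks over the 6 windows came to 1.23 and 37.6 per Mb in Paro/Neo 1 and 2, where all protein-coding windows held 0.640 and 12.2, and to 4.94 and 1.85 per Mb in Ctrl 1 and 2, where they held 4.05 and 0.871. In each of the 4 libraries the density at the 6 genes was thus above that of all windows. Outside Paro/Neo 2 this rested on few peaks, with 2 in Paro/Neo 1, 8 in Ctrl 1 and 3 in Ctrl 2. Without Paro/Neo 2 the difference in mean peak number was −3.5, and with lists of equal length it was −1.

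Each of the 6 Meis1 regions called in all 4 libraries overlapped a Hoxb13 peak, in every case one of Paro/Neo 2. No peak of the other 3 Hoxb13 libraries overlapped any of them. Over all 610 such Meis1 regions, 44.3% overlapped a peak of Hoxb13 Paro/Neo 2 and 8.03% a peak of another Hoxb13 library. Counting every Meis1 region at the 6 genes, 7 of 12 overlapped a Hoxb13 peak, against 29.6% of all 5069 Meis1 regions. Without Hoxb13 Paro/Neo 2 none of the 12 did, so this overlap rests on that library.

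The 2 promoter windows that overlapped a Meis1 peak, in 4 libraries at Cacna1c and in 3 at Cacnb2, held fewer CG dinucleotides than the other windows of these genes. The table holds 8 promoter windows for 5 of the genes, with none for Cacna1g. The window at the upstream Cacna1c start site had 51.3% G+C and 3 CG dinucleotides, and the internal Cacnb2 window had 44.0% and 4. In the other 6 windows G+C ran from 51.3% to 81.3% and CG dinucleotides from 7 to 57. The median of all windows was 52.7% and 7, and that of the 47 windows in Meis1 regions of all 4 libraries was 58.0% and 15, so low CG was not shared by Meis1-bound windows at large. Of the 610 Meis1 regions called in all 4 libraries, 6.56% overlapped a promoter window. The words CAATAAA and TCGTAAA, taken from the Hoxb13 motif, occurred in no window of these genes, on either strand. Of all windows, 4.60% and 0.597% held them, so their absence from 8 windows says little. The Pbx-Hox word TGATTNAT occurred once, in the Cacna2d1 window at base 20 after the start site on the opposite strand, and in 3.22% of all windows.

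Related channel genes held shared regions less often than the 6, which were chosen with earlier results known. The related genes were not read by length class, and the contrast was not tested. A list of 38 other genes comprised 24 of calcium and HCN channels and 14 of sodium channels. Of the 24, 3 held a Meis1 region in at least 2 libraries, among them Cacna1d, which encodes another L-type pore, in 3 (chr14:30458887-30459211), and Cacna2d3 in 2. Cacna2d3 and Cacnb4 are named here after their values were seen. None of the 14 sodium channel genes held a Meis1 region in at least 2 libraries. Over all protein-coding genes, 6.19% did. For Hoxb13, 2 of the 24, Cacnb4 and Cacna2d3, and 1 of the 14 held a region in 2 libraries, and none in more. A Hoxb13 region in at least 2 libraries was found at 22.9% of all protein-coding genes. No other gene of the list matched one of the 6 in the presence or absence of a peak in all 8 libraries. Cacna1g and Hcn4 matched each other in 8 of 8.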

How the data were processed

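ChIP-seq peak lists of 8 libraries were used, 1 list per library in the broadPeak layout. Per the submitters' processing notes, FastQC 0.11.5, Bowtie2, Picard 1.127, MACS2 and HOMER were used on mm10; the options, the control and any filter are not named there. The deposited values used are the fold enrichment of each peak, a ratio, and the −log10 q, whose smallest value is 1.00. Both are the authors' own and served only to rank or filter peaks within a list. Depth is unknown.

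Chromosomes 1 to 19, X and Y were kept, and coordinates are 1-based. Ranks follow fold enrichment within a list. Peaks of the 4 libraries of an antibody that shared at least 1 bp were merged into regions. Gene bodies, start sites and promoter sequences came from RefSeq tables of GRCm38.p6, whose coordinates are those of mm10; all 44 listed channel genes matched. Interval functions were tested on simulated data against brute force; Python 3.11.15 and pandas 2.3.3 were used. The genes and lists were chosen with earlier results of these data known. Named were the 6 genes, their regions called in at least 2 libraries, list genes with a region in at least 3, and list genes alike in all 8 libraries. A result under this rule is not reported here. Alternatives were other windows, a −log10 q of at least 2, equal list lengths, merging within 500 bp, the overlap needed, exchanged Meis1 replicates and leaving out each library. No p-value was computed: with 2 libraries a group, values are given by library.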

Additional observations from a re-analysis of the deposited data

How the results depend on the processing

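Leaving out each library in turn, genes with a region in at least 2 libraries numbered 4 to 5 for Meis1 and 2 to 3 for Hoxb13. With a library left out, the remaining library alone stood for its treatment, so the region counts then include calls of a single library. Regions in Ctrl and not in Paro/Neo ran from 2 to 5 for Meis1, reaching 5 without Ctrl 1, and from 0 to 3 for Hoxb13. Regions in Paro/Neo and not in Ctrl ran from 0 to 0 for Meis1 and from 1 to 56 for Hoxb13. The 56, without Paro/Neo 1, needed a call in Paro/Neo 2 alone and are not regions called in both Paro/Neo libraries. The difference in mean peak number, Paro/Neo minus Ctrl, ran from −4.5 to −2.5 for Meis1 and from −3.5, without Paro/Neo 2, to 55.5 for Hoxb13. The overlap of Meis1 with Hoxb13 ran from 0 to 7 regions. Peaks with a −log10 q of at least 2 gave 1 Meis1 region in both Ctrl libraries alone, a Meis1 difference of −2, 0 Hoxb13 regions in both Paro/Neo libraries alone and a Hoxb13 difference of 8 against 26. Lists of equal length gave 0 such Meis1 regions and a difference of −1 for Meis1 and −1, a change of sign, for Hoxb13, with 1 Hoxb13 region in both Ctrl libraries alone and 0 in both Paro/Neo libraries alone. The gene body alone gave 0 of the latter. Exchanging the second Meis1 replicates gave 0 regions in both Ctrl libraries alone and turned the Meis1 difference to 1.5. The causes were not tested. No paired analysis was possible because no model was fitted to which a replicate block could be added; by replicate number, Meis1 peaks at the 6 genes were 7 in Paro/Neo against 9 in Ctrl, and 6 in Paro/Neo against 11 in Ctrl. Unknown depth leaves every absent peak without a detection limit.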
